A study of Mus musculus with 4 samples.

Results

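Apcdd1 is 1 gene of the 20719 that the count matrices of 4 single-cell RNA sequencing libraries of mouse embryonic brain listed, and it is followed here through the cell groups of the tissue and through the genes detected in the same cells. Its row was taken by its symbol, and the cell groups were set by marker genes that left out Apcdd1 and every Wnt pathway gene. The cells came from embryo heads of embryonic day E10.5, dissociated and sorted by fluorescence to remove dead cells. The libraries labelled Apcdd1+/- 1 and Apcdd1+/- 2 came from embryos said to carry 1 altered copy of Apcdd1, and WT 1 and WT 2 came from wild type embryos of the same age and tissue. The sources used here give neither the strain, nor the part of the gene that was altered, nor the number of embryos in a library. The p-values given for these samples may therefore measure technical spread only. In the mm10 build the gene (ENSMUSG00000071847) occupies bases 62922231 to 62961179 of the plus strand of chromosome 18, where the annotation places 0 other genes over it.

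Wnt proteins are secreted signals that bind Frizzled receptors and Lrp co-receptors and let beta-catenin accumulate, which then acts with TCF and LEF factors on target genes. APCDD1 is a membrane glycoprotein that restrains this pathway at the cell surface, and the gene is itself induced by Wnt signalling, so that it works as feedback. In the embryonic brain, Wnt ligands are made along the dorsal midline, at the boundary of midbrain and hindbrain and in the ventral midbrain, and in brain vessels APCDD1 is known from studies of vessel pruning and of the blood-brain barrier.

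Apcdd1 was not measurably lower in the Apcdd1+/- labelled libraries. Over all kept cells its level was 77.4 and 49.5 counts per 1000000 UMIs (CPM, where a UMI is 1 counted molecule) in Apcdd1+/- 1 and 2, against 63.4 and 60.8 CPM in WT 1 and 2. The Apcdd1+/- libraries lay on either side of both WT libraries. Because the sources used here name neither the altered part of the gene nor the part of a transcript that was read, this value checks the labels only in part. The 4 libraries held 3122 to 9735 cell barcodes and 55393605 to 96822641 UMIs. After cells with fewer than 500 genes or with 10% or more of mitochondrial UMIs were left out, 24259 cells remained, 14764 of them neural progenitors and 1732 neurons by their markers. Another 2983 cells with markers of several classes or of none stayed out of every class. The lists of cell barcodes had between 6 and 25 bead barcodes in common between libraries. Of the 54 pairs of a regional cell group and a marker that had not been used to set it, 33 were higher inside the group in 4 of 4 libraries. Lmo1 went against the dorsal midbrain label with 14.2 CPM inside and 37.5 CPM in other progenitors, and Irx3, Irx1 and Dbx1 were lower inside the prethalamic-type group in 4 of 4 libraries. Foxa1 was 5.84 CPM inside the ventral midbrain group and 5.46 CPM outside it, and Hoxb3, Hoxa3 and Hoxd3 averaged at most 3.82 CPM in the hindbrain groups.

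Apcdd1 was highest in the floor plate cells that also held Lmx1a RNA, a mark of the ventral midline of the midbrain, from which dopaminergic neurons arise. The group was set without a midbrain marker, so that its cells may not all be of the midbrain. Its level there was 323 and 331 CPM in Apcdd1+/- 1 and 2, and 410 and 353 CPM in WT 1 and 2, from 15 to 60 cells per library. Ventral midbrain progenitors followed with 261 and 236 CPM in the Apcdd1+/- libraries and 236 and 252 CPM in the WT libraries. The floor plate cells were above the ventral midbrain cells in 4 of 4 libraries with no overlap, by 108 ± 47.7 CPM (SD, n = 4). Dorsal midbrain progenitors had 237 and 184 CPM in Apcdd1+/- and 310 and 161 CPM in WT, a wide spread that overlapped the ventral midbrain. In alar diencephalic progenitors outside the prethalamic type the level was 182 ± 27.1 CPM, in Lmx1a-negative floor plate 148 ± 40.3 CPM, in prethalamic-type progenitors 141 ± 19.7 CPM and at the isthmus, the organiser between midbrain and hindbrain, 107 ± 27.2 CPM (SD, n = 4 each). All neural progenitors together averaged 81.5 ± 14.5 CPM (SD, n = 4).

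At the other end of the order stood the telencephalon, the eye and the hindbrain. Pallial progenitors, the future cortex, had 10.9 and 6.63 CPM in the Apcdd1+/- libraries and 13.4 and 15.1 CPM in the WT libraries. Subpallial progenitors averaged 7.02 ± 3.83 CPM, neural retina 12.4 ± 3.34 CPM, dorsal hindbrain 12.9 ± 2.88 CPM and the rest of the hindbrain 14.7 ± 6.02 CPM (SD, n = 4 each). Of the cell types outside the neural tube, mesenchyme had 17.2 ± 0.610 CPM, epithelium 21.6 ± 2.26 CPM, macrophages 8.73 ± 3.83 CPM and red blood cell precursors 7.63 ± 5.40 CPM (SD, n = 4 each). Macrophages and red blood cell precursors overlapped all 5 of these neural groups, mesenchyme overlapped the hindbrain groups and lay above the others, and epithelium lay above all 5. In the hypothalamus, Rax-positive progenitors had 7.61 ± 5.92 CPM and Rax-negative ones 37.3 ± 11.1 CPM, and the ranges of those groups did not overlap. In WT 2 the 29 red blood cell precursors held 0 Apcdd1 UMIs, and 3 UMIs would have been 3.45 CPM there.

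Across the 28 cell groups ranked by mean level, a group stood clear of the next one down without overlap at just 2 places, below the Lmx1a-positive floor plate and between epithelium and mesenchyme. Every other pair of neighbours in the order overlapped. Roof plate cells, chosen by at least 2 of Lmx1a, Gdf7, Msx2 and Ttr, were too few to rank, with 6 to 13 Emx2-negative cells per library. A wider dorsal midline group, defined after the data were seen, had 344 and 60.7 CPM in Apcdd1+/- 1 and 2 and 184 and 366 CPM in WT 1 and 2, from 19 to 35 cells each, a spread too wide to place it.

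**Figure D1:**
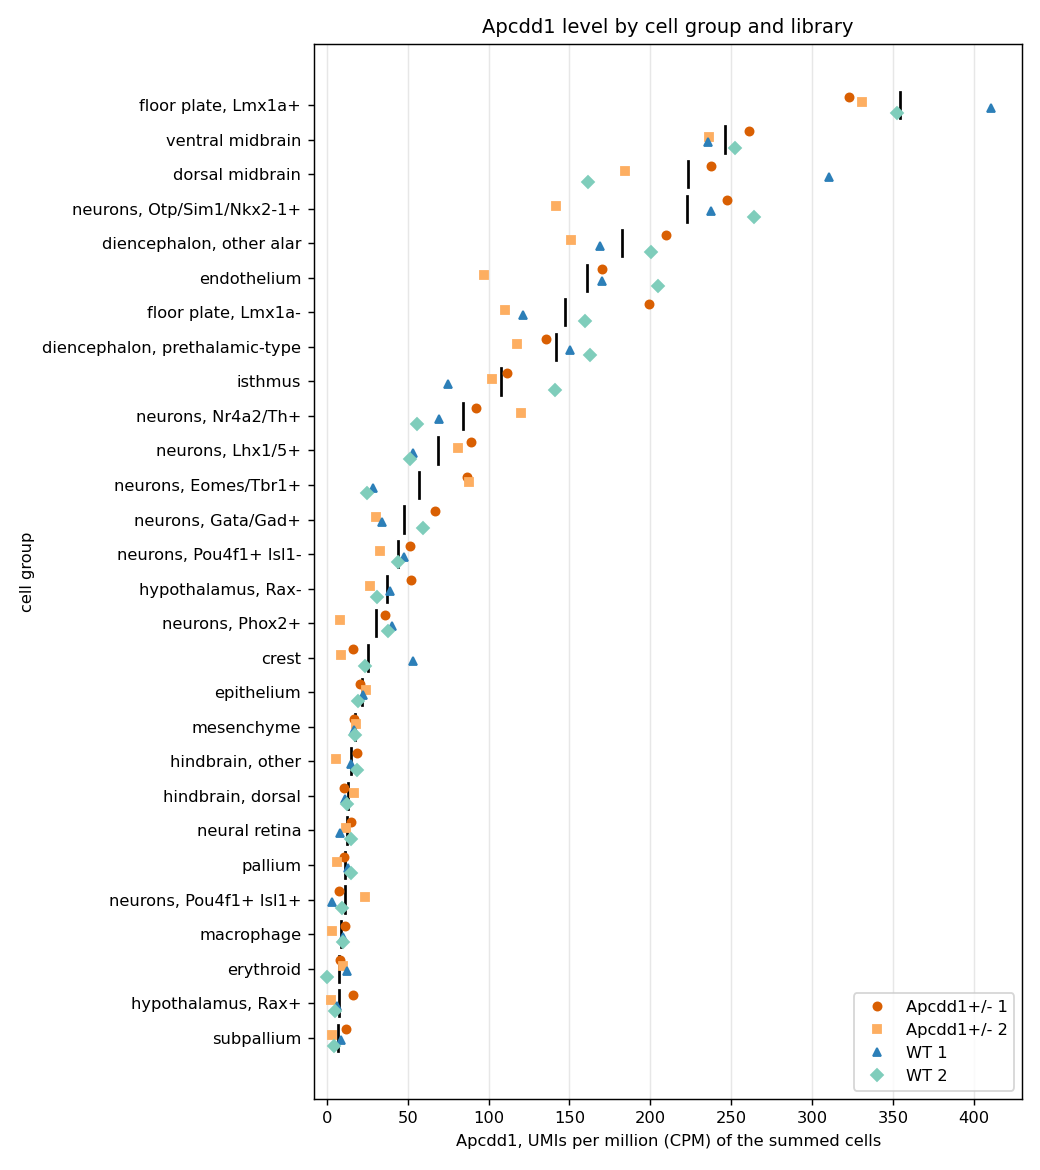
Apcdd1 level in each cell group (rows, in the order of the mean) in CPM of the summed cells (horizontal axis), with 1 point per library and a black bar at the mean of the 4 libraries. The Lmx1a-positive floor plate lies at 323 to 410 CPM, right of every other group, and pallium, subpallium, eye and hindbrain lie near the left edge with mesenchyme, epithelium, macrophages and red blood cell precursors.

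Neural progenitors held 72.5% of all Apcdd1 UMIs and 59.6% of the cells (mean of 4 libraries). Among the regional groups, prethalamic-type progenitors gave 15.4% of the UMIs, the other alar diencephalic progenitors 12.4%, dorsal midbrain 7.30% and the isthmus 5.28%. Progenitors that met no regional marker rule gave a larger mean share than any of these groups, and also made up more of the cells. Endothelial cells gave 2.24% of the UMIs from 0.711% of the cells. Within progenitors the molecules were spread unevenly. Between 67.6% and 78.4% of progenitors had 0 Apcdd1 UMIs, while between 3.52% and 9.70% had 5 or more, and the highest count in a single progenitor was 44. The variance of the count was 5.78 to 9.45 times its mean in the 4 libraries.

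In the 4 progenitor groups of highest level, shares of cells with an Apcdd1 UMI followed the order of the levels once each cell had been thinned to 3000 UMIs. In the Lmx1a-positive floor plate 53.8% of thinned cells were positive (84.3% before thinning), against 14.5% of all progenitors (27.8% before thinning) (means of 4 libraries). Ventral midbrain reached 44.3% (76.5% before), dorsal midbrain 36.3% (71.3% before) and alar diencephalon 29.9% (51.6% before). The Lmx1a-negative floor plate, next in level, also had 29.9% (51.5% before). Thinning left out 298 of the 14764 progenitors for having fewer UMIs. Mesenchyme had 4.28% after thinning (17.3% before), at a median depth of 12294 to 22040.5 UMIs per cell against 8888 to 15794.5 in progenitors. Red blood cell precursors had 1.60% (8.31% before), with 0 to 3.70% in single libraries. Whether either class expresses the gene was not tested, so that neither gives a sure background share. Pallium at 2.55% (9.77% before) and subpallium at 1.10% (6.53% before) lay below the mesenchymal share. Pallium lay above the mean share of red blood cell precursors and subpallium below it. Low expression in these groups cannot be told apart from background here. In neural retina 9.58% of cells were positive before thinning and 0 of 118 after it, which by counting error alone allows up to 2.54% of cells with an Apcdd1 UMI at that depth and sets no limit on the cells that express the gene.

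The regional differences were tested on UMIs summed per group and library, each group against the other progenitors or, for neurons, the other neurons, and each further class against progenitors (edgeR quasi-likelihood test with the library as a term, adjusted over all genes and groups). Of the 25 groups with enough cells, Apcdd1 was higher in 7, lower in 16 and did not pass in 2. Among all genes and groups tested together, 9.78% of the 311329 tests were called higher and 10.4% lower, with 2.19% to 30.0% higher and 3.6% to 30.3% lower in single groups. Ventral midbrain was higher by 1.64 on the log2 scale (SE 0.0843, adjusted p = 4.1e-43), dorsal midbrain by 1.59 (SE 0.0890) and alar diencephalon by 1.33 (SE 0.0522). Prethalamic-type progenitors were higher by 0.99, Lmx1a-negative floor plate by 0.79 and the isthmus by 0.37 (adjusted p = 4.5e-04). The isthmus call did not hold with DESeq2 (adjusted p = 0.212), without the library term (0.111), without Apcdd1+/- 2 (0.0535) or without WT 2 (0.0767). Subpallium differed by -3.43 (SE 0.166), pallium by -3.01 (SE 0.0808), neural retina by -2.77 and dorsal hindbrain by -2.63 from other progenitors, and mesenchyme by -2.14 from all progenitors.

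Groups with 10 to 19 cells in some library were added after the data were seen. In that setting, where 9.55% of 386660 tests were called higher and 10.6% lower, the Lmx1a-positive floor plate was higher by 2.01 (SE 0.110), the dorsal midline group by 1.47 (SE 0.133) and the endothelium by 0.95 (SE 0.131, adjusted p = 1.4e-11), all past the threshold in the edgeR test.

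Among neurons, Apcdd1 was concentrated in the cells with Otp, Sim1 or Nkx2-1, transcription factors of the hypothalamus and of the midline of diencephalon and midbrain. Their level was 248 and 142 CPM in Apcdd1+/- 1 and 2, and 238 and 264 CPM in WT 1 and 2, from 23 to 75 cells. The difference from other neurons was 2.10 (log2, SE 0.161, edgeR adjusted p = 3.8e-10), in the same direction as in the midbrain progenitors. All neurons, not this group alone, were then taken by gene after the values were seen. Those with Sim1, 25 to 66 per library, had 301 and 226 CPM in the Apcdd1+/- libraries and 294 and 335 CPM in the WT libraries. Neurons with Otp had 128, 18.2, 80.4 and 8.15 CPM in Apcdd1+/- 1, Apcdd1+/- 2, WT 1 and WT 2, and neurons with Nkx2-1 had 71.4, 36.8, 48.9 and 37.3 CPM, so that the Sim1 cells were above both in every library, although a neuron can hold more than 1 of the 3 RNAs. Sensory-type neurons with Pou4f1 and Isl1 differed by -2.59, hindbrain-type Phox2 neurons by -1.14 and Pou4f1 neurons without Isl1 by -0.69 from other neurons, all past the threshold. Neurons with Nr4a2 or Th, marks of the dopaminergic lineage, differed by 0.21 (adjusted p = 0.51) and neurons with Lhx1 or Lhx5 by -0.02 (adjusted p = 0.96), and neither passed. The Nr4a2 and Th group had 92.5 and 120.3 CPM in Apcdd1+/- and 69.6 and 55.7 CPM in WT.

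Genes with a profile most like that of Apcdd1 were sought over the 24 cell groups with at least 20 cells in every library. The measure was Pearson's r of log2(mean CPM + 1), a description over groups that share 4 libraries. The Lmx1a-positive floor plate, where Apcdd1 was highest, was too small to enter, as were the endothelium, crest cells and neurons with Eomes or Tbr1. Of 11701 genes, Lrtm1 was nearest (r = 0.80), followed by Dmbx1 (0.78), Sp5 (0.75), Erbb4 (0.74), Wscd1 (0.72) and Samd5 (0.72). Lrtm1 encodes a leucine-rich repeat membrane protein known as a mark of midbrain dopaminergic progenitors, Dmbx1 a homeodomain factor of midbrain and diencephalon, Sp5 a zinc finger factor that is a direct Wnt target, and Erbb4 a neuregulin receptor. Within single libraries the r of Lrtm1 was 0.84 and 0.68 in Apcdd1+/- 1 and 2, and 0.80 and 0.74 in WT 1 and 2. Over the 13 progenitor groups alone, Dmbx1 reached 0.97 and Sp5 0.91. Dmbx1 was at 43.1 CPM in ventral and 42.0 CPM in dorsal midbrain and at 3.20 CPM in the Otp, Sim1 or Nkx2-1 neurons, where Apcdd1 was high. Samd5 was at 83.5 CPM in epithelium, where Apcdd1 was low. Trmt12, also among the 10 nearest, had an r of 0.13 to 0.51 within libraries and a level of at most 10.2 CPM.

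**Figure D2:**
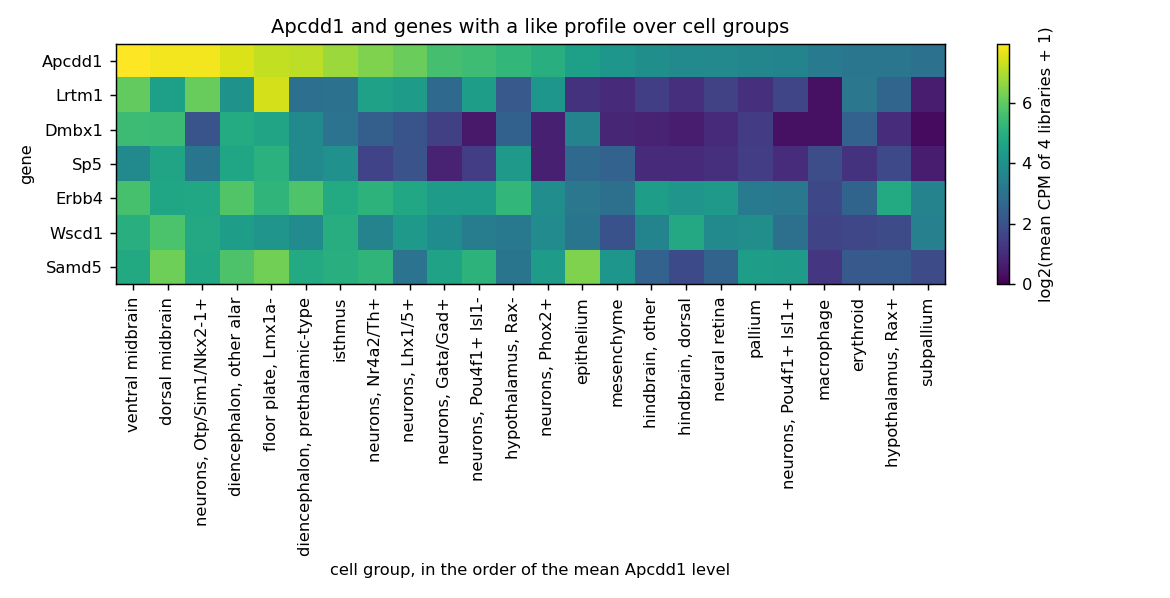
Levels of Apcdd1 and of the 6 genes nearest to it in profile (rows) over the 24 cell groups (columns, in the order of the mean Apcdd1 level), as colour on a scale of log2(mean CPM of 4 libraries + 1). The Lmx1a-positive floor plate and the endothelium, with too few cells, are not among the columns. Lrtm1 and Sp5 fade toward the right with Apcdd1, and Samd5 keeps a bright column in the epithelium.

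Genes detected in the same progenitors as Apcdd1 were found cell by cell as the odds ratio of detection within 10 strata of UMI count, which keeps deep cells from pairing every gene with every other. The 15 highest and 5 lowest of 8885 genes were chosen on the WT libraries, so that the Apcdd1+/- libraries are the ones the choice did not use. Lrtm1 had a log2 odds ratio of 2.48 and 2.78 in Apcdd1+/- 1 and 2, and 2.79 and 2.68 in WT 1 and 2. Sp5 had 2.66 and 2.52 in Apcdd1+/-, and 2.48 and 2.77 in WT. Otx2, the homeodomain factor of forebrain and midbrain, had 2.41 and 2.58 in Apcdd1+/-, and 2.44 and 2.23 in WT. These values were close in all 4 libraries, while 90% of all genes lay between -0.27 and 0.31 in Apcdd1+/- 1 and between -0.37 and 0.42 in WT 2. The other 12 were Dmbx1, Tal2, Pcp4l1, Vtn, Tmem132c, Wls, Irx3, Draxin, Samd5, Pou3f1, Stx3 and Fzd10. The 5 lowest included Lhx2, Six3, Rgcc and Id4, and Lhx2, a factor of cortex and eye, had -3.20 and -2.57 in Apcdd1+/-, and -2.52 and -2.63 in WT.

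Of the 15 highest genes, those whose promoter holds a TCF and LEF or an OTX motif are shown, as the 250 bases before the gene start in RefSeq (build GRCm38.p6), 5′ to 3′ on the gene's strand. Capitals mark CTTTGA, the core bound by TCF and LEF factors, in Sp5 (chr2:70474673-70474922, plus strand), and GGATTA, the core bound by OTX factors, in Lrtm1 (chr14:29017958-29018207, plus strand) and Otx2 (chr14:48665110-48665359, minus strand).
Sp5: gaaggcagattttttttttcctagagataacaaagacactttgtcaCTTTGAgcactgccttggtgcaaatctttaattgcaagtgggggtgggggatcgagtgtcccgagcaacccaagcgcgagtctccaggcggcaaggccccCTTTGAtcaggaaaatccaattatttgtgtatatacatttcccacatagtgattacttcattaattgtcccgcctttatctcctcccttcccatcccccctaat
Lrtm1: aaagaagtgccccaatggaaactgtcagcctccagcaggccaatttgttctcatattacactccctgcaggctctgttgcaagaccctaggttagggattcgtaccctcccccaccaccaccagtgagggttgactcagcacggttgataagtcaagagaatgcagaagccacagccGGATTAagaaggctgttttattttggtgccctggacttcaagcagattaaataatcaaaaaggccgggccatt
Otx2: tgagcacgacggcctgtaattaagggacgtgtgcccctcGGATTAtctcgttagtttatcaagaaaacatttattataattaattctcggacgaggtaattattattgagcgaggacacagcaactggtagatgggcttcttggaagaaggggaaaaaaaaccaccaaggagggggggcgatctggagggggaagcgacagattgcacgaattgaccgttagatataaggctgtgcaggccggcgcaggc

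Both strands were searched, the reverse forms being TCAAAG and TAATCC, and the motifs do not overlap. Of the 14 co-detected genes with a promoter in the table, Sp5 alone held CTTTGA, which it did at 2 places. That motif is held by 13.8% of all 32851 promoters of this length and, counted by gene, by 15.8% of 27025 genes. GGATTA was found in 2 of the 14, Lrtm1 and Otx2, against 6.25% of all promoters and 7.21% of all genes. A match of 6 letters is a description and not a binding site.

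**Figure D3:**
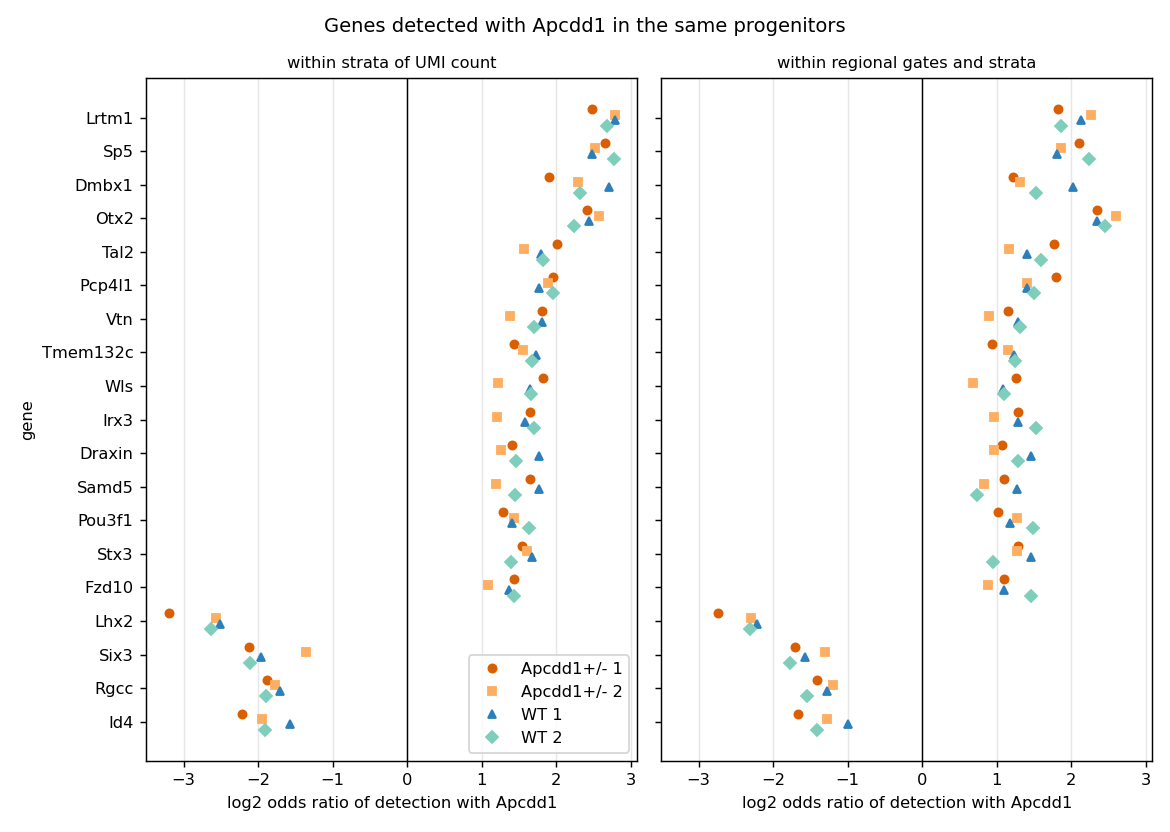
Log2 odds ratio of detection with Apcdd1 in the same progenitor (horizontal axis) for the 15 highest and 4 of the 5 lowest genes (rows), 1 point per library, within strata of UMI count (left) and within regional groups and strata (right). The 15 upper genes stay right of 0 and the 4 lower genes left of 0 in every library in both panels.

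When cells were compared only within their own regional group, the association was smaller and kept its sign. The 6053 of 14764 progenitors that met no regional marker rule counted as 1 group here. For these cells region was not held constant. The median over the 15 genes was 1.26 and 1.17 in Apcdd1+/- 1 and 2, and 1.40 and 1.48 in WT 1 and 2. Without that restriction it was 1.81, 1.56, 1.77 and 1.70. Each regional group was also split into fewer strata of UMI count than the whole, so that region was not the only change. Otx2 had 2.35 and 2.60 in Apcdd1+/-, and 2.34 and 2.44 in WT. The midbrain and diencephalon groups require Otx2 and the hindbrain groups its absence, so that these groups add nothing to its ratio. The Otx2 value rests on the remaining groups, the progenitors that met no regional rule among them, and cannot serve as a control for region. Lhx2 had -2.74 and -2.30 in Apcdd1+/-, and -2.21 and -2.31 in WT.

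Summed expression was then compared between Apcdd1-positive progenitors and Apcdd1-negative ones matched on UMI count within each library, 1851 and 717 cells on each side in Apcdd1+/- 1 and 2 and 985 and 534 in WT 1 and 2. Of 12701 genes, 782 were higher (6.16%) and 637 lower (5.02%) in the positive cells at an edgeR adjusted p below 0.05. With cells matched on regional group as well, 400 of 12293 were higher (3.25%) and 266 lower (2.16%). Of these genes, 620 were also called in the first comparison, counted without regard to direction. Here too the progenitors that met no regional rule were matched as 1 group, so that region was held constant only in part. Otx2 had 369, 387, 377 and 441 CPM in the positive cells of Apcdd1+/- 1, Apcdd1+/- 2, WT 1 and WT 2, against 157, 148, 144 and 157 CPM in the negative cells (log2 difference 1.35, SE 0.0292, adjusted p = 1.8e-24). The positive cells were above the negative cells in every library with no overlap. Among the other genes with the smallest p were Barhl2 (3.56), a homeodomain factor of the diencephalon, Trh (3.91), the precursor of thyrotropin-releasing hormone, and Samd5 (1.83). Among the lower ones were Hmga2 (-0.85), a chromatin protein of early progenitors, and the forebrain factors Lhx2 (-2.11), Emx2 (-1.31) and Six3 (-1.94). Summed neuron markers were 72.7 to 83.4 CPM in the positive and 82.7 to 96.5 CPM in the negative progenitors, lower in 4 of 4 libraries. Mesenchyme markers were 18.6 to 21.8 against 25.0 to 29.4 CPM and lower in 4 of 4, and endothelial markers were 12.9 to 15.8 against 10.7 to 13.7 CPM and higher in 4 of 4. Crest markers, at 7.89 to 10.7 against 7.13 to 7.78 CPM, and progenitor markers, at 1255 to 1433 against 1229 to 1371 CPM, were also higher in 4 of 4. Single markers were split. In 4 of 4 libraries 2 of the 6 mesenchyme markers were higher and 2 lower, and the same held for the 6 progenitor markers. Of the 8 neuron markers 2 were higher and 3 lower, of the 6 endothelial markers 2 and 1, and of the 4 crest markers 1 and 0. None of these panels was at 0, and their part in the gene differences was not tested.

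Levels were graded with the number of Apcdd1 UMIs, without matching on depth. Otx2 averaged 157 ± 12 CPM in progenitors with 0 Apcdd1 UMIs, 294 ± 16.2 with 1, 355 ± 29.4 with 2 and 492 ± 55.3 with 3 or more (SD, n = 4 each). Sp5 went through 4.17 ± 0.513, 13.0 ± 2.91, 17.9 ± 6.15 and 35.3 ± 4.92 CPM over the same steps, and Hmga2 through 541 ± 45.4, 389.6 ± 47.5, 301 ± 41.4 and 273 ± 29.1 CPM. Sox2, a factor of all neural progenitors, stayed between 440 and 449 CPM at every step. Rspo3 was 35.8, 43.5 and 37.0 CPM at 0, 1 and 2 UMIs and 112 CPM at 3 or more, so that its higher level lay in the cells richest in Apcdd1.

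Of 10 Wnt ligand genes that could be tested, 6 were higher and 3 lower in Apcdd1-positive progenitors. Their median log2 difference was 0.68 against -0.004 over all genes. For this and the lists that follow, 6.16% of all genes were higher and 5.02% lower, or 3.25% and 2.16% with regional matching. Wnt1, the ligand of the isthmus and dorsal midline, had 13.2, 2.55, 9.66 and 9.89 CPM in the positive cells of Apcdd1+/- 1, Apcdd1+/- 2, WT 1 and WT 2, against 1.91, 0.705, 1.38 and 0.594 CPM in the negative cells. The difference was 2.90 (log2, SE 0.192), and the lowest positive value, in Apcdd1+/- 2, still exceeded every negative one. Wnt3 (1.48), Wnt3a (1.35) and Wnt9a (0.77) were higher as well. Wnt7b, a ligand of the forebrain, had 25.9, 47.3, 38.7 and 43.2 CPM in the positive cells against 58.6, 86.0, 74.2 and 89.3 CPM in the negative cells and was lower by 1.03, and Wnt8b (-0.25) and Wnt5b (-0.23) were lower too. With matching on regional group 4 were higher and 2 lower. Wnt1 (2.58), Wnt3 (1.15), Wnt3a (1.12), Wnt7b (-1.06) and Wnt8b (-0.69) passed in both comparisons.

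Of 14 Wnt receptor genes 3 were higher and 5 lower, with a median of -0.22. Fzd10, a Frizzled receptor of the dorsal neural tube and midbrain, had 55.6, 76.1, 84.0 and 77.4 CPM in the positive cells against 24.5, 39.9, 43.0 and 33.8 CPM in the negative cells (1.06, SE 0.0520). Ror1 (0.62) and Fzd3 (0.18) were higher but did not pass with regional matching. Fzd5 (-1.71) and Fzd8 (-1.45), receptors of the anterior forebrain and eye, and Fzd7 (-0.70) and Fzd4 (-0.56) were lower, and of these Fzd4 did not pass with regional matching. R-spondins raise Wnt sensitivity by clearing ligases that remove Frizzled. In that branch Lgr5, an R-spondin receptor, was higher by 1.09 (0.96 with regional matching), and Rspo3 by 1.05. With regional matching Rspo3 differed by 0.12 (adjusted p = 0.48), and Rspo2, which differed by 0.19 without it (adjusted p = 0.25), was lower by 0.78.

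Secreted and membrane inhibitors of the pathway were split, with 5 of 13 higher and 3 lower. Dkk2, which binds Lrp co-receptors, had 27.7, 27.7, 23.6 and 37.3 CPM in the positive cells against 3.03, 2.58, 5.06 and 6.44 CPM in the negative cells (2.77, SE 0.121). Draxin (1.54), an axon guidance protein with Wnt-antagonist activity, Trabd2b (0.88), a membrane protease that inactivates Wnt ligands, and Frzb (0.83), a secreted Frizzled-related protein, were higher as well. Sfrp1, another secreted Frizzled-related protein, had 127, 117, 127 and 169 CPM in the positive cells against 308, 250, 256 and 334 CPM in the negative cells (-1.11, SE 0.0340). Shisa2, of a family known to retain Frizzled inside the cell, was lower by 1.9 and Sfrp2 by 0.32. Dkk2 (1.54), Draxin (1.27), Frzb (0.85), Trabd2b (0.53), Sfrp1 (-0.69), Shisa2 (-1.10) and Sfrp2 (-0.29) all passed with regional matching too, so that inhibitors of both families stood on either side.

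Of 17 Wnt targets and feedback genes 9 were higher and 3 lower, with a median of 0.27. Axin2, the most used readout of beta-catenin activity, had 23.1, 17.4, 23.0 and 24.4 CPM in the positive cells against 13.0, 10.9, 13.1 and 12 CPM in the negative cells (0.83, SE 0.0810). Wls, which carries Wnt ligands to the cell surface, had 177, 144, 161 and 178 CPM against 75.7, 77.3, 75.5 and 70.4 CPM (1.14, SE 0.0437). Both genes were higher in 4 of 4 libraries. Sp5 (2.58), Tcf7l2 (0.98) and Lef1 (0.39) were higher, and with regional matching the differences were 0.54 for Axin2, 0.66 for Wls, 1.87 for Sp5, 0.60 for Tcf7l2 and 0.47 for Lef1, all past the threshold. Tcf7l1 (-0.36), known mainly as a repressor, Sp8 (-0.28) and Ccnd1 (-0.10) were lower, and of these Tcf7l1 alone passed with regional matching, when 7 were higher and 1 lower.

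**Figure D4:**
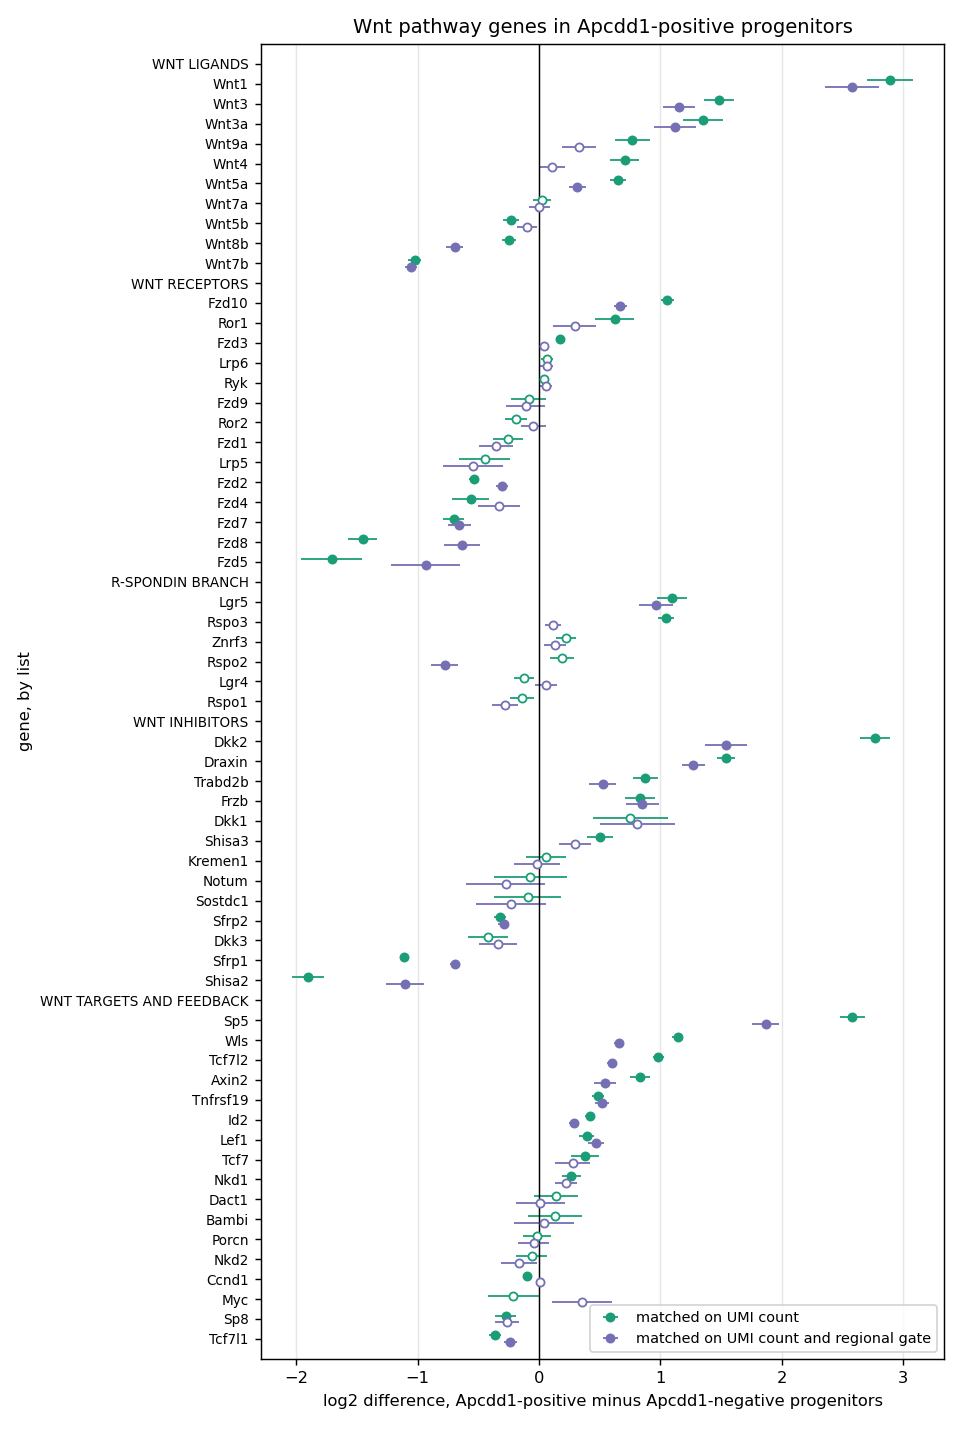
Log2 difference (horizontal axis) between Apcdd1-positive and Apcdd1-negative progenitors for the tested genes of 5 Wnt pathway lists (rows), with SE bars, matched on UMI count (green) and on UMI count and regional group (purple). Filled points passed an adjusted p of 0.05. Wnt1, Dkk2 and Sp5 lie furthest right in their lists, and Wnt7b, Fzd5 and Shisa2 furthest left.

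Lists of other pathways were read in the same comparison, in which 6.16% of all genes were higher and 5.02% lower. Of 18 BMP pathway genes 5 were higher and 2 lower (median 0.21), among them Msx1 (0.73), Bmp6 (0.60) and the inhibitors of bHLH factors Id3 (0.55) and Id4 (-1.66). The last of these had 34.1, 52.1, 79.4 and 80.3 CPM in the positive cells against 145, 188, 178 and 246 CPM in the negative cells. Of 14 Hedgehog genes (median 0.25) 7 were higher, including Gli1 (0.72), Nkx2-2 (0.71) and Shh (0.68), and Gli3 was lower by 0.14. Shh did not pass with regional matching (0.11, adjusted p = 0.81). Of 14 neurogenesis genes (median 0.31) 6 were higher, among them the proneural factors Neurog1 (1.17) and Neurog2 (0.70) and the Notch ligand Dll3 (0.91), and 3 were lower, with Stmn2 (-1.01), Elavl3 (-0.42) and Tubb3 (-0.20), which mark differentiating neurons. Among 16 genes of S and G2/M phase, Pcna was lower by 0.08 and the other 15 did not pass. Of 10 brain vessel genes tested in progenitors 5 were higher and 1 lower (median 0.15).

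In neurons, Apcdd1-positive and depth-matched negative cells differed in 499 of 9750 genes, 224 higher (2.3%) and 275 lower (2.82%). Of these, 206 were also called in progenitors, counted without regard to direction. In progenitors 11.2% of all genes tested were called. Otx2 was again higher, with 408, 415, 377 and 438 CPM in the positive cells of Apcdd1+/- 1, Apcdd1+/- 2, WT 1 and WT 2 against 130, 144, 109 and 118 CPM in the negative cells (1.73, SE 0.0872). Ccnd2 (1.19), a cyclin of dividing progenitors, Neurog2 (1.60), Fabp7 (1.43), Cck (3.88), the precursor of a neuropeptide, and Dmrta2 (2.42) were higher. Dmrta2 had been called lower in progenitors (-0.64), and Draxin, called higher there (1.54), was called lower in neurons (-0.55). Nefm (-1.73), Nefl (-1.66), Mapt (-1.70) and Stmn2 (-0.95), which belong to the axonal cytoskeleton, were lower. Summed neuron markers were 4136 to 6167 CPM in the positive cells and 8537 to 12355 CPM in the negative cells, lower in 4 of 4 libraries, and progenitor markers were 466 to 988 against 349.5 to 575 CPM, higher in 4 of 4. Endothelial markers were 15.2 to 31.2 against 11.4 to 16.97 CPM in these neurons, also higher in 4 of 4, although of the 6 markers 1 was higher and 1 lower in every library. The positive neurons thus held less RNA of mature neurons and more of progenitors, and the part of this in the gene differences was not tested. Among genes detected with Apcdd1 in neurons, Sim1 had a log2 odds ratio of 2.26 and 2.49 in Apcdd1+/- 1 and 2, and 2.75 and 2.29 in WT 1 and 2. Ilf2, also chosen on the WT libraries (1.64 and 1.95), had -0.40 and -0.26 in the Apcdd1+/- libraries, which the choice had not used.

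In the endothelium, the lining of the vessels, Apcdd1 had 170 and 97.2 CPM in Apcdd1+/- 1 and 2, and 170 and 204 CPM in WT 1 and 2, from 12 to 111 cells per library. After thinning 26.5% of cells were positive (52.8% before thinning). Positive endothelial cells were compared with negative ones matched on depth in only 2 strata. Each side held 51, 8, 23 and 4 cells in Apcdd1+/- 1, Apcdd1+/- 2, WT 1 and WT 2. Median depth was 13388, 10289, 20036 and 19227.5 UMIs in the positive cells and 12629, 12058, 19499 and 14492.5 UMIs in the negative cells. The positive and negative cells differed in 36 of 4467 genes, 31 higher (0.694%) and 5 lower (0.112%). This was 0.806% of the genes tested. With a library left out, the number of genes tested changed as well. Without WT 1, 5 of 2191 genes were called (0.228%), and without Apcdd1+/- 1, 18 of 2184 (0.824%). Without Apcdd1+/- 2 it was 34 of 6048 (0.562%), and without WT 2 it was 31 of 5932 (0.523%). Slc2a1, the glucose carrier of brain vessels, had 430, 652, 317 and 432 CPM in the positive cells against 184, 155, 134 and 270 CPM in the negative cells (1.27, SE 0.182, adjusted p = 6.0e-04). Foxf2 (3.03), a transcription factor of brain vessels, Slc7a5 (2.24) and Slco2b1 (2.19), carriers of amino acids and organic anions, were higher in the same cells. Gja4 (2.39), an arterial connexin, Hey1 (1.67), a Notch target of arteries, Fn1 (1.53) and Nkd1 (3.16), a feedback inhibitor of Wnt signalling, were higher too. Ccnd1, Gap43, Mif, Hspe1 and Ccnb1ip1 were lower, by 0.65 for Ccnd1 and 1.05 for Gap43. Of the list of Wnt targets and feedback genes, which includes Ccnd1, 5 could be tested here. Of these 1 was higher, 1 lower and 2 had a positive sign, with a median of -0.65 against -0.005 over all genes. Of 10 brain vessel genes tested 2 were higher and 8 did not pass, among them Cldn5, a tight junction protein, at 0.01, Foxq1 at 2.08 (adjusted p = 0.092) and Plvap, of fenestrated vessels, at -0.39 (adjusted p = 0.43). The summed endothelial markers were 2434 to 2763 CPM in the positive cells and 1944 to 2924 CPM in the negative cells and overlapped, and all 4 crest markers were at 0. Summed neuron markers were 10.3 to 63.8 CPM in the positive cells and 7.07 to 45.4 CPM in the negative cells, higher in 4 of 4 libraries. Of the 8 markers 2 were at 0 in the positive cells and 0 were higher in every library. The part of these markers in the gene differences was not tested.

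**Figure D5:**
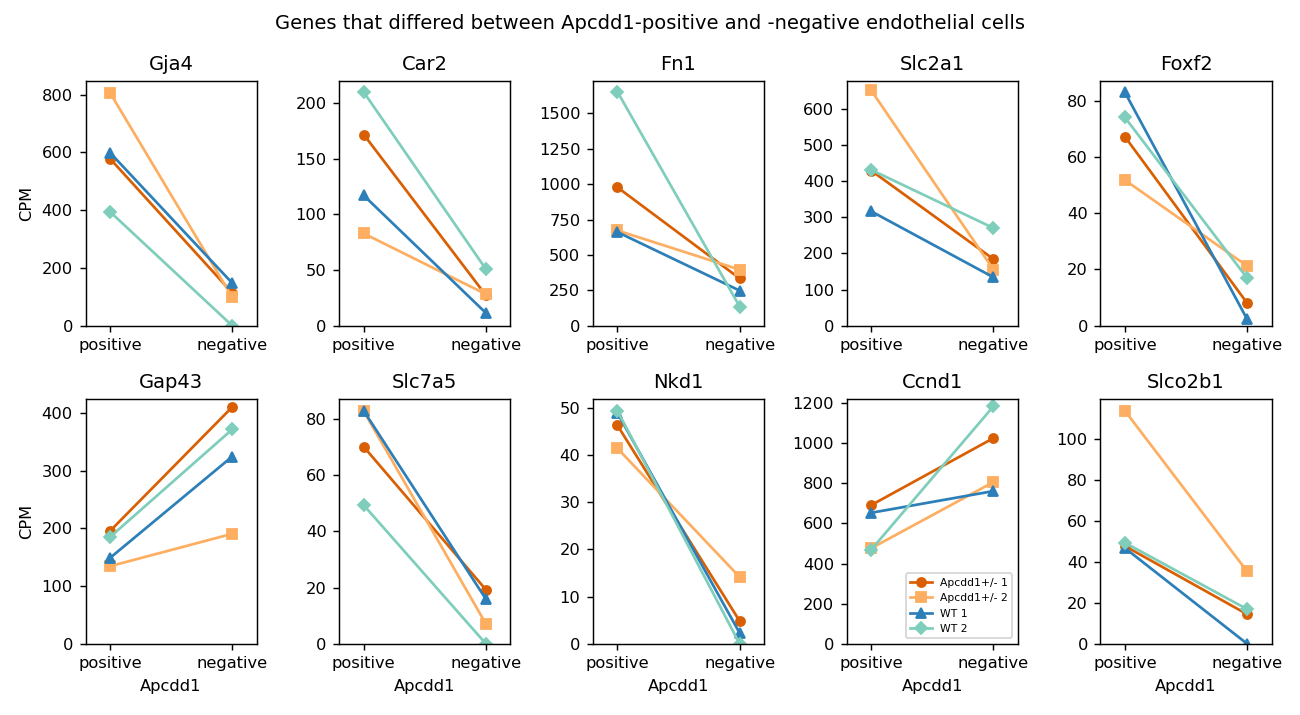
Levels in CPM of 10 genes called in the endothelium (1 panel each, vertical axes from 0) in Apcdd1-positive cells (left) and coarsely depth-matched Apcdd1-negative cells (right), with 1 line per library. Gap43 and Ccnd1 run upward from positive to negative in every library, and the other 8 genes run downward.

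Between the labelled genotypes, Apcdd1 was tested in 13 cell groups, namely progenitors, neurons, mesenchyme, endothelium and the regional groups with at least 50 cells per library. It passed in 0 of them (edgeR, adjusted over all genes), as did 0.0% of all genes tested in these groups. Epithelium, which also had 50 cells per library but was not among the groups listed for this test, had 3 of 11299 genes called (0.0266%) and an Apcdd1 difference of 0.10 (edgeR adjusted p = 0.9997). In the pallium the unadjusted p of the edgeR test was 0.041 (-0.62), the lowest of the 13. The differences of Apcdd1+/- minus WT lay between -0.70 and 0.49 and were negative in 6 groups. Over 23 groups with at least 10 cells per library, where 0.00534% of all tests were called, Apcdd1 passed in 0, and the differences lay between -0.997 and 1.62 with an unadjusted edgeR p below 0.05 in 4 groups. The highest was in neurons with Eomes or Tbr1, which had 86.7 and 87.9 CPM in Apcdd1+/- 1 and 2, from 22 and 21 cells, against 28.6 and 25.0 CPM in WT 1 and 2, from 40 and 10 cells. DESeq2 also called 0 of the 13. In progenitors Apcdd1 had 96.3 and 61.6 CPM in Apcdd1+/- 1 and 2, against 83.1 and 85.1 CPM in WT 1 and 2, a difference of -0.05 on the log2 scale (95% interval -0.49 to 0.39). Without Apcdd1+/- 1 the difference was -0.44 and without Apcdd1+/- 2 it was 0.25, so that its sign rested on single libraries. In neurons the levels were 105 and 56.0 CPM in Apcdd1+/- and 62.8 and 55.2 CPM in WT (0.49, 95% interval -0.07 to 1.04), and without Apcdd1+/- 2 the difference was 0.88 (edgeR adjusted p = 0.0066). In that fit the genotype is a single library, assumed to vary as the WT libraries do. In mesenchyme they were 16.6 and 18.0 CPM in Apcdd1+/- and 16.9 and 17.4 CPM in WT (0.01). In none of these 3 classes was any gene called (0.0% of the genes tested), while 209 genes in progenitors, 363 in neurons and 211 in mesenchyme had an unadjusted p below 0.05, and DESeq2 called 0 in progenitors. With 1 library left out, edgeR called 0 to 101 genes in progenitors, 1 to 116 in neurons and 2 to 29 in mesenchyme, with the highest count in each class without Apcdd1+/- 2.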

How the data were processed

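Embryo heads of E10.5 mice were dissociated and sorted, and 4 libraries were made with a DNBelab C kit and read on the MGISEQ-2000, per the labels' protocols. The deposited values are raw UMI counts per gene and cell, which PISA 0.12 wrote, per the file headers. In that step the authors divided them by nothing and filtered them in no way that the sources used here state. The submitters' processing notes list mm10 as the build and Scanpy 1.9.1 as a tool without saying for what. No aligner is given in the sources used here.

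Cells with at least 500 genes and under 10% mitochondrial UMIs were kept. Broad classes were set by summed UMIs of marker panels (neurons at least 10, progenitors at least 3 with at most 5 neuron UMIs), and regional groups by markers detected in progenitors and neurons. Progenitors that met no regional rule formed 1 remaining group. No doublet caller was run, so that doublets must be taken as present. Cells with markers of several classes were set aside, and an alternative left out the top 5% of cells by UMI count. A gene not listed in a library counted as 0 there (18081 genes were listed in all 4). The barcode list of Apcdd1+/- 1 named 3994 of its cells. CPM values are shares of summed UMIs per 1000000. Shares were taken after thinning each cell to 3000 UMIs, with exact 95% binomial intervals that cover counting error.

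UMIs were summed per library and group and tested with edgeR 4.0.16 in R 4.3.3 (TMM, its filter on low counts, quasi-likelihood test, library as a term for comparisons within libraries), with Benjamini-Hochberg adjustment at 0.05 over all genes, and over all groups for the regional test. SE values are the log2 difference over the square root of F. Groups needed at least 20 cells in every library, and at least 50 for the genotype test. Negative cells were drawn from the same library and strata of UMI count (10 strata for progenitors and for neurons, 2 for the endothelium). Odds ratios are Mantel-Haenszel estimates for genes detected in 5% to 95% of cells, over 10 strata of UMI count, or over 5 strata in each regional group. Those of the endothelium are not given, since WT 2 held 12 endothelial cells. On simulated data, changes were set only in genes averaging at least 10 CPM. Between positive and negative progenitors, on 12592 genes, 100% of genes changed 2-fold and 99% of those changed 1.5-fold were recovered. Between genotypes, on 14414 genes, 92% and 19% were recovered. In each comparison 8 unchanged genes were called. Recovery of genes below that level was not measured.

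Named genes were the members of the fixed lists past the threshold (up to the 4 largest each way), the 15 higher and 10 lower genes of smallest p in progenitors and in neurons, the called endothelial genes and the genes nearest in co-detection or profile, of which not every one is given. Members, lists and tests were chosen with earlier results of these data known. Alternatives were DESeq2 1.42.0, RLE scaling, no filter on low counts, stricter groups, other matching and each library left out.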

Additional observations from a re-analysis of the deposited data

Results flagged for a closer look

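Of 32 cell groups looked at, 3 had a library whose Apcdd1 level stood far from the other 3 by Dixon's criterion, and chance alone marks about 1 in 20 groups. In Phox2 neurons Apcdd1+/- 2 had 8.36 CPM, against 36.1 to 40.1 CPM in the other libraries. In macrophages Apcdd1+/- 2 had 3.04 CPM, against 10.3 to 11.4 CPM in the others. In all neurons Apcdd1+/- 1 had 105 CPM, against 55.2 to 62.8 CPM in the others.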

How the results depend on the processing

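Of the regional differences, 7 higher and 16 lower calls became 6 and 15 with DESeq2, which lost the isthmus and the Gata or Gad neurons, and 6 and 14 without the library term, which also lost neurons against progenitors. With stricter groups 20 could be tested and all passed, 6 higher and 14 lower. When smaller groups were added 11 were higher. Neurons with Lhx1 or Lhx5 (-0.02) turned to 0.0079 with DESeq2, 0.53 with stricter groups (adjusted p = 0.0217) and 0.019 without the top 5% of cells, and ranged from -0.19 to 0.11 with a library left out. Neurons with Nr4a2 or Th ranged from -0.045 to 0.37. The 1419 genes between positive and negative progenitors became 692 with DESeq2 and 666 with regional matching, and neurons gave 499. With regional matching Ccnd1 (0.0043) and Tubb3 (0.051) changed sign, and of the 66 list genes called 22 lost their call. Leaving out a library gave 955 to 1230 genes in progenitors and 5 to 34 in the endothelium, where single named genes, where still tested, kept their call 74 times and lost it 56 times, and Apcdd1 itself passed between genotypes in 0 to 1 groups. Those differences ranged from -0.44 to 0.25 in progenitors, -0.061 to 0.88 in neurons and -0.060 to 0.10 in mesenchyme. The progenitor share was 27.8% with no thinning and 19.7% at 5000 UMIs. With the replicate number as a block the progenitor difference was -0.09 and 31 genes were called, but same-numbered libraries did not deviate together (r = 0.0526 over 14583 genes), so the numbers were not taken as pairs. The cause of these shifts was not tested. Co-detection in the endothelium was not run. Groups of few cells and 2 libraries per genotype limit precision.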
